A study of Homo sapiens with 4 samples.

Results

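Bins of the genome in which lamin B1 was enriched in VCaP but not in LNCaP cells were taken from lamin B1 chromatin immunoprecipitation and sequencing data. A bin belonged to this class if it lay on chromosomes 1 to 22, was 40 kb wide with the same borders in both deposited tables, had a log2 enrichment over input of at least 0.4 in VCaP, and had a value from -0.8 to 0 in LNCaP. The rule selected 6446 of 67170 bins, 9.60% of the autosomal bins measured in both lines, or 258 Mb. The members are called VCaP-only bins. The members were chosen by the deposited enrichment values of both lines, so their levels and the difference between the lines are descriptions, and no test was made.

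LNCaP, an established cell line labelled prostate adenocarcinoma, was grown in RPMI medium with serum. VCaP, an established cell line from a bone metastasis of prostate cancer, was grown in DMEM/F12 medium with serum. The labels name no drug and no genetic change in either line. Near-confluent cultures were fixed with formaldehyde, and each line gave 1 library from a lamin B1 antibody and 1 input library without antibody, so medium and cell line cannot be told apart and no difference has a replicate check. The read depth is unknown, since the deposited values are enrichments and not counts.

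Lamin B1 builds the nuclear lamina, the filament mesh that lines the inner nuclear membrane. Chromatin that touches it forms lamina-associated domains, long stretches that are usually poor in genes, rich in A and T bases, late in replication and low in transcription. Part of these domains is shared by most cell types, and part differs between cell types. Values above 0 here mean more DNA recovered with lamin B1 than expected from the input of the same line, on a scale whose zero was set by the authors.

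In LNCaP, VCaP-only bins had a lowest value of -0.80, a median of -0.16 and a highest value just under 0, with quartiles of -0.29 and -0.07. In VCaP they had a lowest value of 0.40, a median of 0.62 and a highest value of 1.79, with quartiles of 0.50 and 0.78. The rule itself keeps both ranges apart. Over all 67170 bins the medians were 0.06 in LNCaP and 0.19 in VCaP, so the members lay 0.22 below the middle of the LNCaP distribution and 0.43 above that of VCaP.

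The VCaP minus LNCaP difference of the members had a median of 0.83 log2 units (quartiles 0.68 and 1.01, range 0.40 to 2.36), against a median of 0.10 over all bins. For 1 bin, the noise SD of this difference was 0.20, estimated from bins 3 apart. The smallest difference that the rule allows, 0.4, is therefore 2.05 times this SD. VCaP was higher by at least 0.4 in 27.4% of all bins, and by more than 1 in 1655 members (25.7%) and 3.90% of all bins. Within the class the values of the lines were nearly unrelated: across the 6446 bins, which share both library pairs and whose values are limited to narrow ranges, Pearson r was 0.0674 and Spearman rho 0.104.

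**Figure D1:**
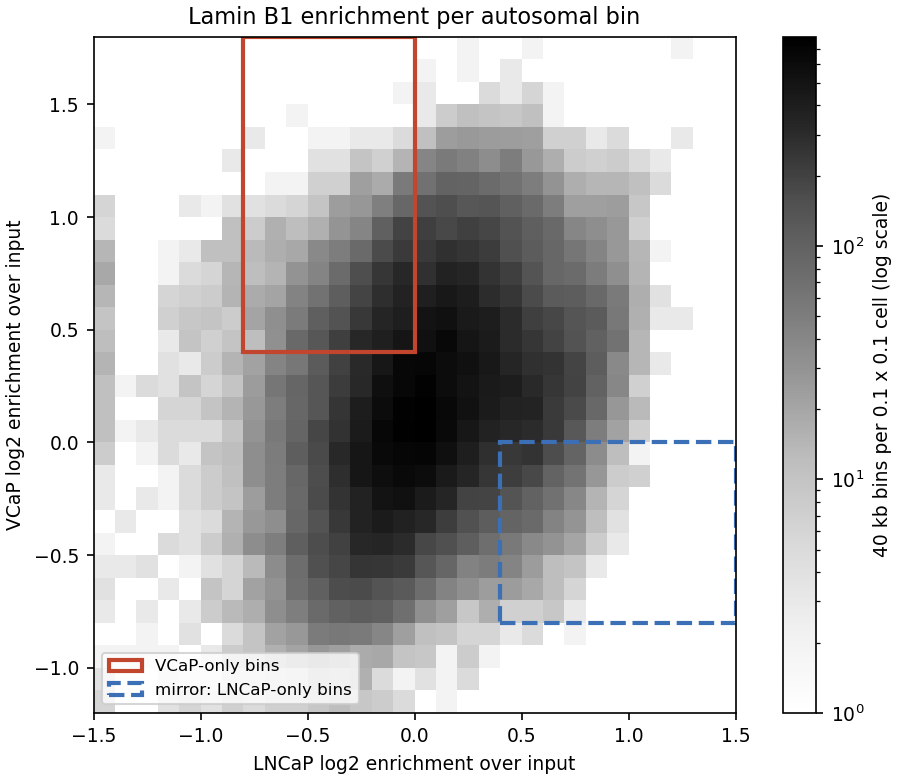
Log2 lamin B1 enrichment in LNCaP (x axis) and VCaP (y axis) of the 67170 autosomal 40 kb bins, shaded by the number of bins on a log scale, with values beyond the axes drawn in the outermost cells. The solid box holds the 6446 VCaP-only bins and the dashed box the 2383 bins of the mirror rule, and the solid box reaches into the dense centre of the cloud rather than around a separate group of bins.

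The class was cut out of a distribution that has bins on both sides of each bound. The 3 members closest to the VCaP threshold had values of 0.400064, 0.400074 and 0.400087 in VCaP, and the 3 bins just outside it had 0.399954, 0.399935 and 0.399928. At the upper bound in LNCaP, the last members had -1.56e-05, -9.84e-05 and -9.94e-05, and the first bins outside had 9.13e-06, 2.32e-05 and 4.20e-05. At the lower bound, the last members had -0.799, -0.799 and -0.798, and the first bins outside had -0.801, -0.801 and -0.802. With this many bins, close values lie on both sides of nearly any cut, so these neighbours cannot show whether a step exists. Counts on a grid of both values left no gap at the bounds in the cells read. At LNCaP values around -0.15, 464 bins lay around 0.35 in VCaP and 381 around 0.45. At VCaP values around 0.45, 541 bins lay around 0.05 in LNCaP and 480 around -0.05. At the same VCaP values, 10 bins lay around -0.85 in LNCaP and 12 around -0.75.

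Of the 21732 bins with VCaP values of at least 0.4 (32.4% of all bins), 29.7% were VCaP-only. A further 9750 bins (44.9%) had LNCaP values between 0 and 0.4, 5258 (24.2%) were at or over 0.4 in LNCaP as well, and 278 (1.28%) were below -0.8 in LNCaP. Bins enriched in VCaP were thus most often at an intermediate level in LNCaP. Over all 67170 bins, 42.1% had LNCaP values from -0.8 to 0, and 12517 bins were at or over 0.4 in LNCaP. LNCaP values from -0.8 to 0 were therefore less frequent among bins enriched in VCaP (29.7%) than among all bins. The 278 bins under the lower bound lay mainly on chromosomes 11 (85 bins), 19 (56) and 13 (36).

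Exchanging the lines in the rule gave 2383 LNCaP-only bins, 3.55% of all bins, so VCaP-only bins were 2.70 times as many. This ratio depended on the scaling between the lines. It was 1.19 with each line centred on its median (4346 and 3660 bins, the former including 3581 of the members, 55.6%) and 1.02 after quantile normalization (4037 and 3951 bins). Whether one class is larger than the other therefore rests on the zero point and spread of the 2 tables, which no replicate fixes.

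The deposited tables also give each bin one of 2 labels from a hidden Markov model, AD or iAD, of which AD carries the higher enrichment and was read as lamina-associated. Of the VCaP-only bins, 97.5% were AD in VCaP, where the label covered 44.0% of all bins, and 99.5% were iAD in LNCaP, where that label covered 62.6%. The labels come from the same values as the rule and add no independent evidence. Both labels together held for 6251 members (97.0%).

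Most of the exceptions lay near the thresholds. The 161 members labelled iAD in VCaP had a median VCaP value of 0.45 (range 0.40 to 0.83), low for the class. The 34 members labelled AD in both lines had a median LNCaP value of -0.03 (lowest -0.18). Conversely, 16048 bins (23.9% of all) were AD in VCaP and iAD in LNCaP, and 39.0% of them were VCaP-only bins by value. Of the others, 6098 were over 0 in LNCaP, 4809 were under 0.4 in VCaP and 393 were below -0.8 in LNCaP, with some bins failing on both lines.

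VCaP-only bins formed 1941 runs of adjacent bins. The median run was 80 kb long (2 bins), the upper quartile 160 kb, and the longest 2520 kb. Single bins made up 35.6% of the runs, 691 in number. The 402 runs of at least 5 bins held 53.6% of the members, and the 19 runs of at least 20 bins held 8.66%. LNCaP-only bins, a smaller class, fell into 822 runs, and the longest was 680 kb. Their 136 runs of at least 5 bins held 44.9% of the LNCaP-only bins.

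Longer runs were the more extreme in both lines. Single-bin runs averaged -0.12 in LNCaP and 0.55 in VCaP. Runs of 5 to 9 bins had -0.22 and 0.68, and runs of 20 bins or more had -0.33 and 0.77. The mean difference between the lines rose across these classes from 0.68 to 0.90 and 1.11. Bins well inside all bounds are less often interrupted by a bin that crosses one, so the rule contributes to this order.

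Run length also carries the smoothing of the deposited values, each of which was treated as the mean of an entry and the 2 entries preceding it. With this mean undone, 6434 bins met the rule and 3750 of the members (58.2%) were among them. In runs of at least 5 bins 69.4% of the members still met the rule, and in shorter runs 45.2%. The undone median over the members was -0.18 in LNCaP and 0.64 in VCaP, close to the deposited medians. The class as a whole kept its levels, whereas many single bins, above all in short runs, no longer met the rule. Undoing the mean also raises the noise, and short runs lie closer to the bounds. How far membership depended on neighbouring bins can therefore not be told from these shares.

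The longest run spanned 63 bins of chromosome 19 from 41360001 to 43880000 (hg19, as are all positions). LNCaP averaged -0.53 ± 0.16 (SD over bins, range -0.80 to -0.16) and VCaP 0.77 ± 0.19 (0.41 to 1.11). The difference was 1.30, and, as the rule requires, the lines did not overlap. Its noise SD, 0.04, covers bin-to-bin noise only, as do the noise SDs of the runs below. Offsets between the lines or chromosomes are not in it, and bins are no replicates of a line. The run lay within a VCaP domain of adjacent AD bins from 40680001 to 44400000, in which 84 of 93 bins were VCaP-only and 0 were AD in LNCaP. It began beside a bin at -0.81 in LNCaP, just past the lower bound, with VCaP at 0.78 there.

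The next longest run spanned 50 bins of chromosome 17 from 31280001 to 33280000, averaging -0.19 ± 0.10 (SD over bins) in LNCaP and 0.78 ± 0.18 in VCaP. Unlike the run on chromosome 19, it had sharp borders in VCaP, where the bin before it was at 0.16 and the bin after it at 0.28. LNCaP was lower outside than inside, at -0.62 before and -0.50 after the run. Both lines therefore had more lamin B1 signal within this interval than beside it, at levels about 1 log2 unit apart (difference 0.97, noise SD 0.05).

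The next run in length had 41 bins on chromosome 1 from 17200001 to 18840000, with means of -0.34 ± 0.14 in LNCaP and 0.83 ± 0.24 in VCaP. A pair of runs of 37 bins followed. One lay on chromosome 21 from 45080001 to 46560000 (-0.40 ± 0.12 and 0.86 ± 0.26). The other lay on chromosome 22 from 18880001 to 20360000 (-0.36 ± 0.12 and 0.79 ± 0.22), between bins at -1.14 and -1.95 in LNCaP where VCaP was at 0.70 and 0.68. The chromosome 22 run ended where LNCaP dropped out of the range of the rule, and VCaP stayed enriched on both sides.

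The remaining runs among the 10 longest were on chromosome 7 from 43840001 to 45200000, chromosome 6 from 43200001 to 44360000, chromosome 9 from 130160001 to 131160000, and chromosome 19 from 49520001 to 50480000 and from 17840001 to 18800000. A run of equal length to these last, 24 bins on chromosome 17, had a smaller difference and was left out. Across the 10 longest runs the means ranged from -0.53 to -0.19 in LNCaP and from 0.71 to 0.86 in VCaP, with differences of 0.97 to 1.30 and noise SDs of 0.04 to 0.07. All 364 of their bins were AD in VCaP and 0 were AD in LNCaP.

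**Figure D2:**
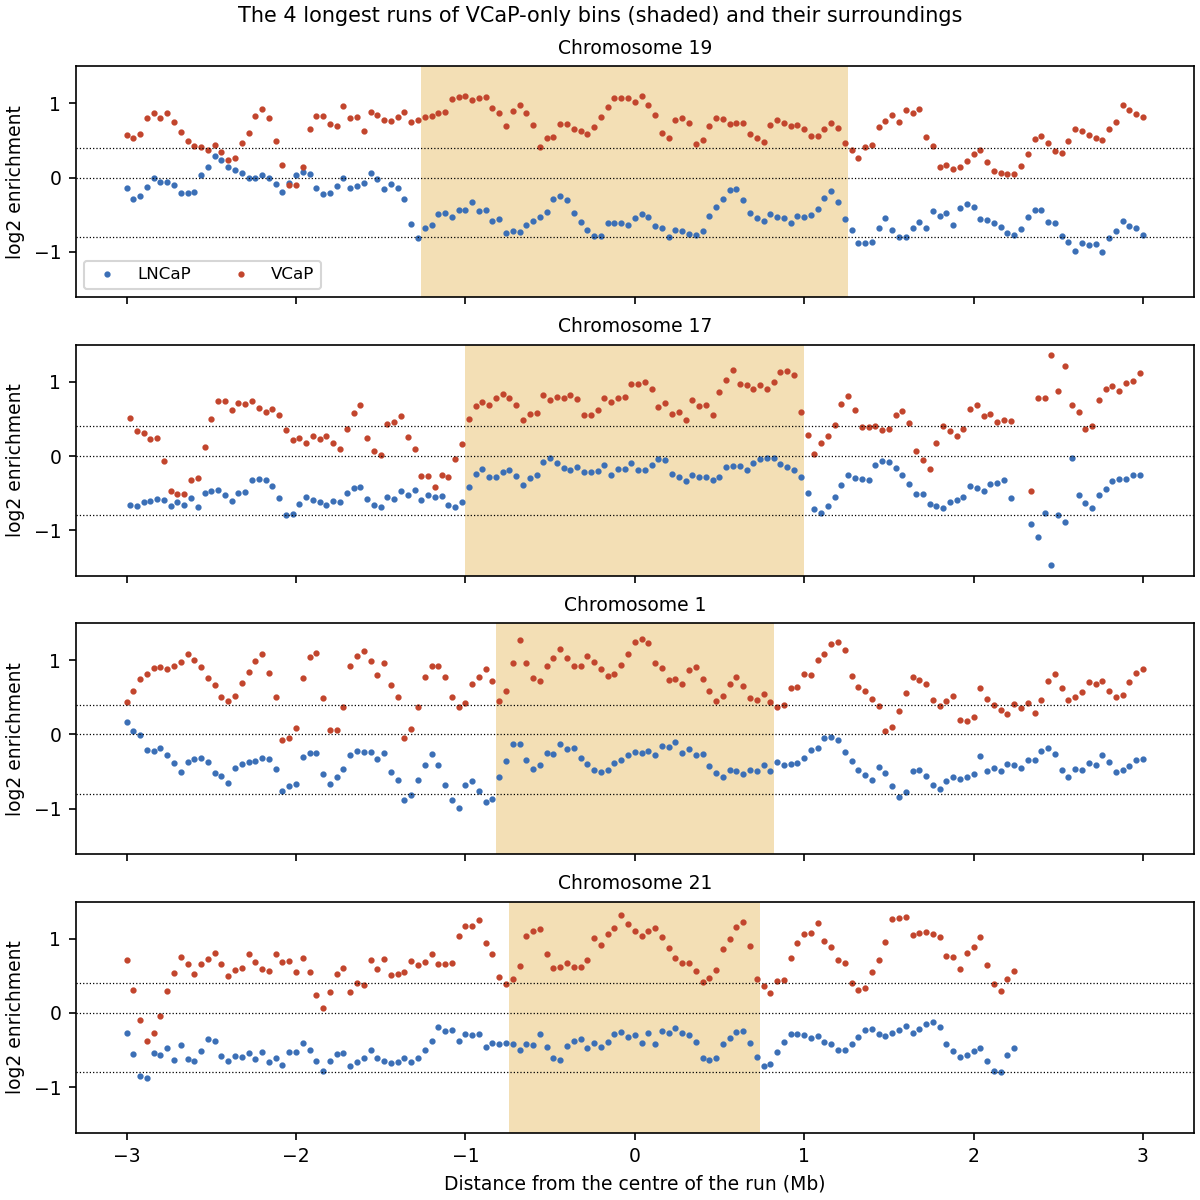
Log2 lamin B1 enrichment of each 40 kb bin in LNCaP (blue) and VCaP (red) against the distance from the centre of the 4 longest runs (shaded), with dotted lines at the bounds of the rule, 0.4, 0 and -0.8. VCaP fell to 0.16 and 0.28 in the bins beside the run on chromosome 17, and only to 0.40 and 0.36 beside the run on chromosome 21.

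Of the runs of at least 5 bins, that with the largest mean difference was on chromosome 11 from 64320001 to 64520000, with -0.58 in LNCaP and 1.12 in VCaP over 5 bins (difference 1.71, noise SD 0.15). It was followed by chromosome 19 from 45440001 to 45680000 (difference 1.58), chromosome 17 from 42240001 to 42560000 (1.56), and chromosome 19 from 45800001 to 46000000 (1.55) and from 47840001 to 48120000 (1.44). These runs were short, 5 to 8 bins. All 5 began beside a bin below -0.8 in LNCaP, and 4 of the 5 also ended at one. The exception was the run on chromosome 17, which ended where VCaP fell to 0.20. The lower bound of the rule thus divides longer stretches of low LNCaP signal into these runs.

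The borders of runs were set by either line. Of the 804 sides of runs of at least 5 bins, 451 (56.1%) ended at a bin with VCaP under 0.4 and LNCaP still in range, and 303 (37.7%) at a bin with LNCaP over 0 and VCaP still at 0.4 or more. At 27 sides LNCaP fell below -0.8, at 19 both lines left the range, and at 4 there was no neighbouring bin. A drop of lamin B1 signal in VCaP ended a run more often than a rise in LNCaP did.

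Bins around the runs were compared with the genome average. Bins 3 or more away share no averaged entry with a run, but other members lie among them. From 120 to 400 kb outside runs of at least 5 bins, the mean was -0.20 in LNCaP and 0.49 in VCaP, against -0.24 and 0.71 inside the runs and 0.07 and 0.19 over all bins. Of these flanking bins 37.3% were themselves VCaP-only. On average over all these runs, LNCaP changed by 0.04 across the border, and VCaP lost 0.22 log2 units but stayed 0.30 above its genome average. At 2000 kb from the runs the means were still -0.12 and 0.44, and 29.7% of the bins there were VCaP-only.

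Single-bin runs had weaker surroundings, with -0.07 in LNCaP and 0.39 in VCaP from 120 to 400 kb away. These too differed from the genome averages in the same directions, without members or chromosome levels taken out. The chromosomes that hold the runs had offset levels too, in a comparison added after seeing the data. Weighting the chromosome means by the flanking bins of runs of at least 5 bins gave -0.01 in LNCaP and 0.28 in VCaP. These flanks lay 0.19 below and 0.21 above the means of their own chromosomes. Since 37.3% of these flanking bins were members, the rule contributes to both offsets, and flanks without members were not measured.

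**Figure D3:**
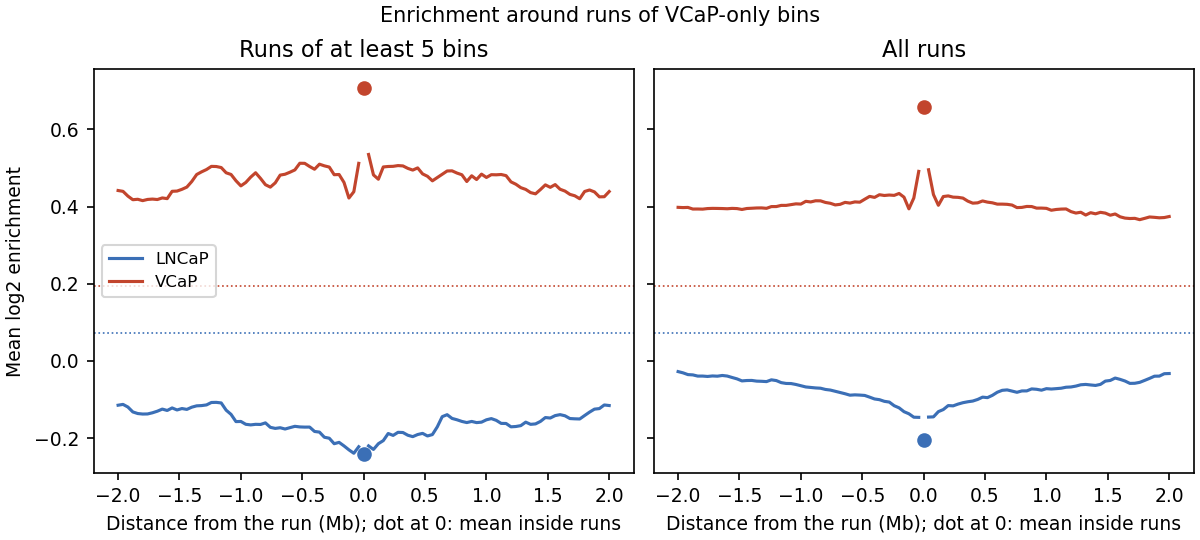
Mean log2 enrichment in LNCaP (blue) and VCaP (red) against the distance from runs of at least 5 VCaP-only bins (left) and from all runs (right), with a dot for the mean inside runs and dotted lines for the means over all bins. At 2000 kb VCaP is still at 0.44 (left) and 0.39 (right) and LNCaP at -0.12 and -0.03, away from the dotted lines at 0.19 and 0.07.

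How far runs rose over their surroundings varied between chromosomes. For runs of at least 5 bins, the VCaP mean inside exceeded that 120 to 400 kb away by 0.07 on chromosome 20, 0.09 on chromosome 19 and 0.10 on chromosome 22. Chromosome 2 had the highest step, 0.41, followed by chromosome 21 with 0.37. Chromosomes 6 and 8 had steps of 0.34 and 0.33. On chromosomes 19, 20 and 22 the runs were thus barely distinct from a high VCaP level around them, while on chromosomes 2, 6, 8 and 21 they stood well above it. The VCaP medians were 0.71, 0.44 and 0.67 on the former, and 0.12, 0.08, 0.21 and 0.18 on the latter. Every run bin is at 0.4 or more in VCaP by the rule, so the rule contributes to this order. The smallest steps were -0.04 on chromosome 14, with 2 such runs, and 0.05 on chromosome 4, with 1. Chromosomes 16 and 18 had 0 such runs.

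LNCaP steps varied as well. LNCaP was higher outside than inside the runs on 14 of the 20 chromosomes with such runs, and lower on 6. Chromosome 4 went from -0.25 inside to 0.22 outside, and chromosome 14 from -0.06 to 0.16. Chromosome 5 went from -0.43 to -0.12, and chromosome 6 from -0.31 to -0.11. On chromosomes 4, 5 and 20 LNCaP rose by more than VCaP fell. On chromosome 14, with 2 such runs, both lines rose, VCaP from 0.54 inside to 0.58 outside.

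VCaP-only bins were spread unevenly over chromosomes, a property that the rule did not use. The highest shares of bins were 43.0% for chromosome 22, 32.7% for chromosome 19, 28.7% for chromosome 21, 28.6% for chromosome 17 and 26.8% for chromosome 20, against 9.60% over all autosomes. These 5 chromosomes hold 9.82% of the bins and 31.7% of the VCaP-only bins. Of them, 17, 19 and 22 are known as gene-dense chromosomes that in many cell types lie towards the nuclear interior. Their VCaP medians were 0.49, 0.71 and 0.67, against 0.19 over all bins, although lamina-associated domains are usually poor in genes. Their LNCaP medians were -0.03, 0.03 and -0.08, against 0.06. The reason for the high VCaP levels was not tested. Gene density was not measured here, so its relation to the share over the 22 autosomes is not known.

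The lowest shares were 1.21% on chromosome 16, 1.23% on chromosome 18 and 1.83% on chromosome 4. Their levels differed. On chromosome 16 both lines were high, with medians of 0.45 in LNCaP and 0.58 in VCaP. On chromosome 18 the medians were 0.14 and 0.18. On chromosome 4 they were 0.09 and 0.03, a low level in VCaP, where 16.8% of its bins were at or over 0.4 against 32.4% of all bins. On chromosomes 18 and 4, LNCaP-only bins made up 5.35% and 6.39%. In all, 17 chromosomes had more VCaP-only than LNCaP-only bins, and 5 had fewer. Chromosomes 21 and 22 had 0 LNCaP-only bins.

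Shorter chromosomes tended to have the higher share. Over the 22 autosomes, which all come from the same libraries, the share and the chromosome length had a Pearson r of -0.61 and a Spearman rho of -0.44. Chromosomes 16 and 18 went against this trend. On chromosome 21, 88.5% of the bins at or over 0.4 in VCaP were VCaP-only, against 53.9% on chromosome 22 and 40.2% on chromosome 19. The LNCaP median of chromosome 21, -0.40, was the lowest of the autosomes.

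**Figure D4:**
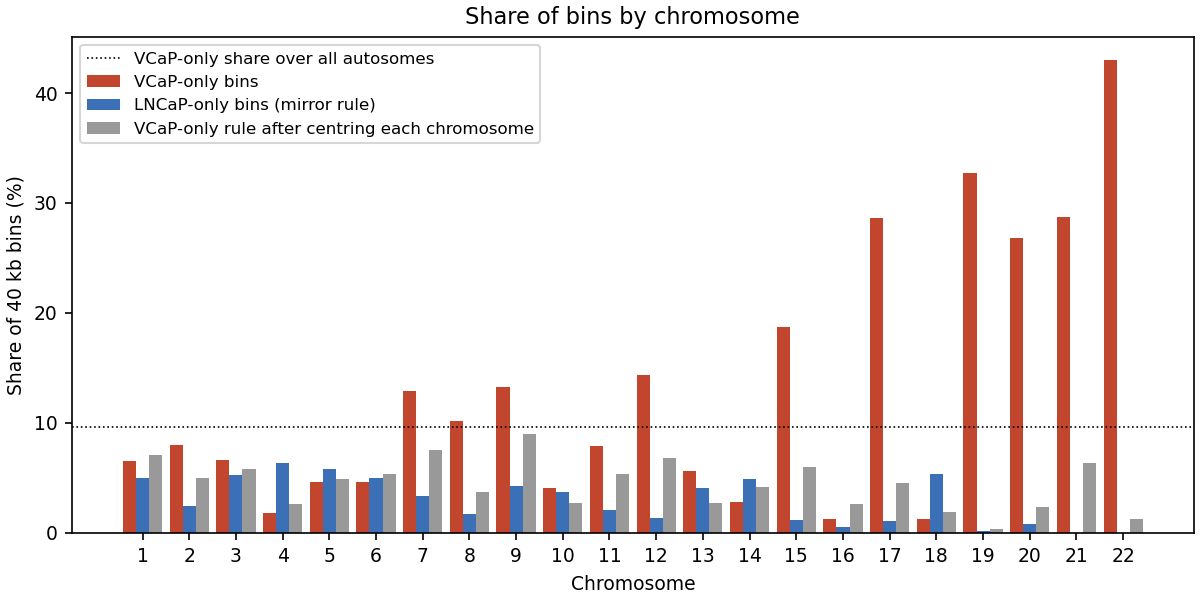
Share of 40 kb bins on each autosome that met the VCaP-only rule (red), the mirror rule (blue) and the VCaP-only rule after subtracting each chromosome's own median in each line (grey), with the share over all autosomes, 9.60%, as a dotted line. The red bars reach 26.8% to 43.0% on chromosomes 17, 19, 20, 21 and 22, where the grey bars are at 0.358% to 6.33%.

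Members were then compared with the level of their own chromosome. When each chromosome of each line was centred on its own median, 3288 bins met the rule, of which 2566 were VCaP-only bins before (39.8% of these). Only 3 of 457 members on chromosome 19 and 11 of 376 on chromosome 22 were left, and 35 of 400 on chromosome 20. On these chromosomes the VCaP medians were 0.71, 0.67 and 0.44, and those of LNCaP 0.03, -0.08 and -0.05. The median VCaP bin of each of these chromosomes was thus itself above the threshold of 0.4.

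On the 17 autosomes other than 17, 19, 20, 21 and 22, 53.9% of the members still met the rule after centring, against 9.39% on those 5. This share was highest for chromosomes 6 (75.3%), 4 (73.3%), 3 (72.4%) and 9 (67.4%). After centring, chromosome 9 had the highest share of bins meeting the rule (8.98%) and chromosome 19 the lowest (0.358%), and LNCaP-only bins (3355) were about as many as VCaP-only bins. This alternative was chosen after the chromosome shares were seen.

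Arms of one chromosome also differed. VCaP-only bins made up 11.2% of the short arm and 1.25% of the long arm of chromosome 1, and 12.9% and 1.19% of those of chromosome 3. The median LNCaP value was 0.08 on the short and 0.30 on the long arm of chromosome 1, and -0.03 and 0.09 on those of chromosome 3. The order was the opposite on chromosome 8, with 3.68% on the short and 13.1% on the long arm, and on chromosome 11, with 1.56% and 12.0%. In these 4 chromosomes, picked for their contrast, the arm with the higher share had the lower LNCaP median. The same held for 11 of the 17 autosomes with at least 100 bins on both arms and not for the other 6, and the rule itself selects low LNCaP values.

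On chromosome 19, 45.9% of long-arm bins and 15.8% of short-arm bins were VCaP-only. VCaP was high on both arms, with medians of 0.65 and 0.78, and LNCaP was at -0.12 on the long and 0.31 on the short arm. The lines thus differed more on the long arm, where LNCaP was lower. On chromosome 20 the long arm had 33.9% and the short arm 17.8%, with nearly equal LNCaP medians (-0.05 and -0.04) and VCaP medians of 0.55 and 0.31. There the arms lay further apart in VCaP than in LNCaP, whose medians differed by 0.012.

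**Figure D5:**
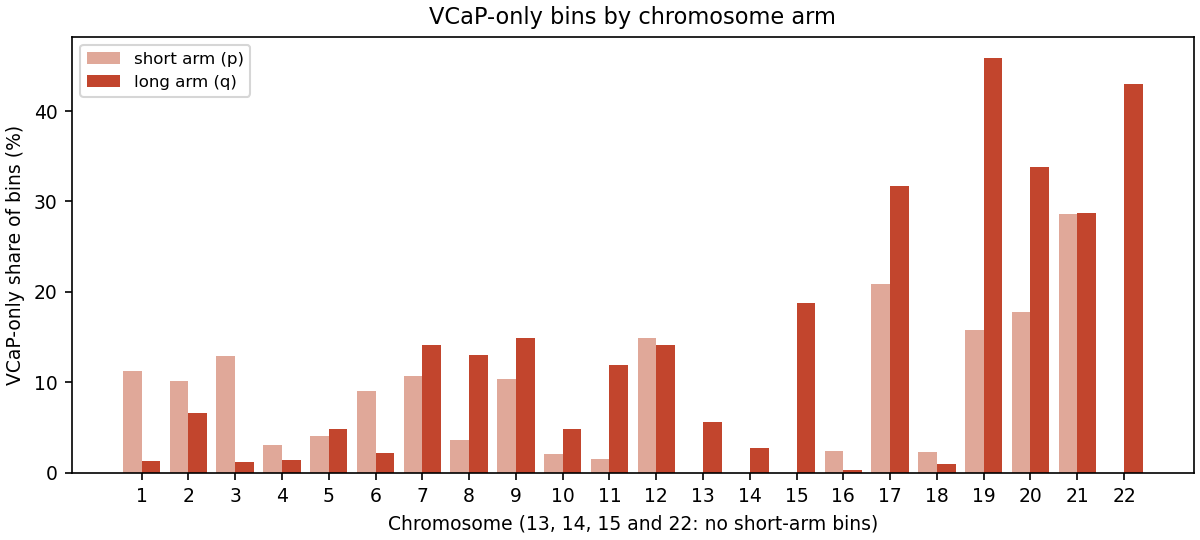
Share of 40 kb bins that were VCaP-only on the short arm (light) and long arm (dark) of each autosome, with arms divided at the longest stretch without bins, and 42 bins only on the short arm of chromosome 21. The long arm of chromosome 19 has the tallest bar, 45.9%, and the short arms of chromosomes 1 and 3, at 11.2% and 12.9%, stand far above their long arms, at 1.25% and 1.19%.

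Position along the chromosome was not used by the rule either. Of the members, 14.3% lay within 5 Mb of a chromosome end, against 7.13% of all bins and 2.52% of LNCaP-only bins. An even spread of the members within their own chromosomes would place 8.97% there. Bins at or over 0.4 in both lines were also often near an end, 15.9% of them, so this position was common to both classes with high VCaP values.

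Single ends differed widely. The last 5 Mb of chromosome 21 had 112 VCaP-only bins of 124 (90.3%), with means of -0.45 in LNCaP and 0.75 in VCaP. On chromosome 17 the shares were 69.4% in the last and 57.7% in the first 5 Mb, and at the end of chromosome 5 the share was 49.2% on a chromosome with 4.62% in all. Of the 39 ends with bins, 18 were above the autosomal share and 6 had no member, among them both ends of chromosome 16.

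The members were set against the domains of adjacent AD bins of each line. Of 1161 autosomal VCaP domains, 637 held at least 1 VCaP-only bin and 524 held none. In 397 of the 637 no bin was AD in LNCaP, and these held 3767 members (58.4%). The other 240 domains, partly AD in LNCaP as well, held 2518 (39.1%). Of all 1161 VCaP domains, 44.4% had no AD bin in LNCaP, and they held 30.4% of the VCaP AD bins. A rule that requires LNCaP values of at most 0 favours such domains.

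Among the 754 VCaP domains of at least 10 bins, 109 consisted of VCaP-only bins to at least 50%. The highest share was on chromosome 2 from 65720001 to 66680000, where 23 of 24 bins were VCaP-only, with means of -0.52 in LNCaP and 0.74 in VCaP. Next came domains on chromosome 2 from 242400001 to 243040000 (15 of 16 bins), chromosome 1 from 22480001 to 23360000 (20 of 22), chromosome 19 from 40680001 to 44400000 (84 of 93) and chromosome 2 from 62360001 to 62760000 (9 of 10). None of these 5 held a bin that was AD in LNCaP. The longest VCaP domain, 524 bins of chromosome 19 from 280001 to 21240000, was of the other kind: 366 of its bins were AD in LNCaP and 95 were VCaP-only.

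The distance of the members from the AD bins of LNCaP was measured last. Their median distance to the nearest AD bin of LNCaP was 1.68 Mb, against 0.84 Mb for all 42052 iAD bins of LNCaP. It was over 1 Mb for 64.2% of the members and 44.1% of the LNCaP iAD bins, and within 120 kb for 6.67% and 12.0%. The rule favours this direction, since both the AD label and the bound of 0 rest on the same LNCaP values.

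Bins beside a gap of the tables or a chromosome end can be less reliable. Among the members 3.38% lay within 5 bins of one, against 1.84% of all bins, and without them 6228 members remained with a median difference of 0.83. Of the 10 longest runs, 1 held such a bin, that on chromosome 22.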

How the data were processed

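Lamin B1 and input libraries of LNCaP and VCaP, 1 each, were sequenced. The submitters' processing notes name STAR and the build hg19; filters and the scaling of ChIP to input are not given in the sources used here. The authors deposited, per line, log2 enrichment over input and a hidden Markov state (AD or iAD) per entry. In entries wider than 40 kb (194 in LNCaP, 212 in VCaP) the median absolute value fell from 0.21 and 0.33 to 0.0047 and 0.0075 when a trailing mean of 3 entries was undone, so the deposited log2 values were treated as such means, which lie about 40 kb downstream.

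The members and lists were chosen with earlier results of these data known. Bins with equal borders in both tables were joined, and 32 without a value dropped. Noise is the median absolute change over 3 bins times 1.4826, divided by the square root of 2; for a run it was divided by the square root of its bins over 3, or left as it is under 3 bins. Starts are counted from 1. Named were the 10 longest runs, the 5 runs of at least 5 bins with the largest difference, the 5 VCaP domains of at least 10 bins with the highest share, and the 3 bins on each side of a bound. Chromosomes, arms and ends with the highest or lowest values were picked after seeing them. Alternatives were other bounds, centring, quantile normalization, the undone mean, bins away from gaps, states, bridged runs and, chosen later, centred chromosomes and undone runs. Genes, GC content and sequences, although planned, were left out, as the only tables at hand use another genome build. Undoing was tested on simulated series, and the rule and runs on values planted in the bin layout of these data. The joining had no simulated test. The scripts ran in Python 3.11.15 (scipy 1.17.1, numpy 2.4.6, matplotlib 3.10.9, pandas 2.3.3).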

Additional observations from a re-analysis of the deposited data

How the results depend on the processing

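Of 55 alternative values for 12 results, 29 stayed within the limits set for them, 25 moved and 1 changed direction. The limits were 1.5 times for counts and ratios, 1 noise SD for differences, and a 95% binomial interval for shares. That interval takes bins as independent, which adjacent averaged bins of the same libraries are not. It is therefore too narrow, and a share counted as moved can lie within its real uncertainty. Against 6446 members, there were 4346 with centred lines (3581 of them members before), 4282 with LNCaP bounded at -0.1, 4037 after quantile normalization (4029 of them members before), 16048 with the states as rule and 3288 with centred chromosomes. Runs of at least 5 bins fell from 402 to 234 with LNCaP bounded at -0.1, 257 with centred lines, 161 with centred chromosomes and 187 with the mean undone, where runs numbered 3733 with a median of 40 kb. The ratio to LNCaP-only bins fell to 1.19 with centred lines, 1.02 after quantile normalization and 0.980 with centred chromosomes, below 1. The median difference was 0.56 with centred chromosomes, and between 0.70 and 0.84 under the other alternatives. The AD share in VCaP was 99.3% at a bound of 0.5, and the iAD share in LNCaP 99.9% at -0.1. The share of chromosome 22 was 34.9% with centred lines, 31.3% after quantile normalization, 71.2% with states, 36.2% at 0.5 and 1.26% with centred chromosomes; that of chromosome 16 was 0.607% after quantile normalization, 3.39% with states and 2.58% with centred chromosomes. Near ends the share was 25.7% within 10 Mb, by construction, and 16.7% with centred chromosomes. Stricter bounds leave fewer bins by construction. Centring moves the zero point, so a count can fall or rise. With centred lines, LNCaP-only bins rose from 2383 to 3660. Other causes were not tested. Alternatives on genes and GC content, planned before, could not be run without an hg19 annotation. No paired analysis was possible because no group has a replicate. With depth unknown, bin noise is the only error.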

Other observations

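In windows of 1 Mb with all 25 bins measured, VCaP-only bins were concentrated. Of 2586 windows, 1658 (64.1%) held none, and 151 on 18 chromosomes consisted of them to at least 50% and held 39.9% of all members. All 25 bins were VCaP-only in 4 windows: chromosome 7 from 44000001 to 45000000, chromosome 17 from 32000001 to 33000000, chromosome 19 from 42000001 to 43000000 and chromosome 22 from 19000001 to 20000000. Their means were -0.30, -0.19, -0.60 and -0.36 in LNCaP and 0.78, 0.79, 0.76 and 0.69 in VCaP, so chromosome 19 had the lowest LNCaP level at a VCaP level like that of the others. These windows were picked after their values were seen.

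Chromosome X lies outside the class. By the same thresholds, 240 of its 3722 common 40 kb bins (6.45%) were VCaP-only and 99 were LNCaP-only.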
